A study of Rattus norvegicus with 4 samples.

Results

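The 10 genes described here belong to the signalling pathway of leukaemia inhibitory factor (LIF) and interleukin 6: the ligands Lif, Il11 and Il6, the receptors Lifr, Il6st, Il11ra1, Il6r and Osmr, the transcription factor Stat3 and the feedback inhibitor Socs3. They were chosen by name, with earlier results of these data known. Each was represented by 1 probe set whose only gene symbol in the platform annotation was that gene. They are 10 of the 18166 genes tested. RNA came from uteri of Sprague Dawley rats, 10 to 12 weeks old, taken on day 5 of pregnancy, before implantation. One group had been dosed by mouth on day 1 of pregnancy with ormeloxifene, 1.25 mg per kg, prepared in gum acacia; the other received only the vehicle. All animals in both groups were pregnant, and no other treatment or genotype is named. Each group had 2 arrays, labelled as biological replicates 1 and 2, and the sources used here do not give how many rats stood behind an array. Ormeloxifene is a non-steroidal modulator of oestrogen receptors that is used as an oral contraceptive, and the comparison asks how this pathway stood in the uterus when such a dose had been given early in pregnancy.

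Most cytokines of this family act through receptor complexes that share the transmembrane protein gp130, encoded by Il6st. Ligand binding brings gp130 together with a second chain, such as the LIF receptor or the oncostatin M receptor, and JAK kinases bound to the chains then phosphorylate STAT3, which enters the nucleus and switches on target genes. One of those targets is Socs3, whose product binds gp130 and the kinases and shuts the signal down. In mice, LIF from the uterine glands acts on the luminal epithelium and is required for the blastocyst to implant, and interleukin 11 signalling is required for the decidua to form.

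In the uteri from ormeloxifene-fed rats the signals of Osmr, Socs3 and Stat3 lay below those of the vehicle uteri on both arrays, by more than the gap between the arrays of either group. The ligand Il6 was also lower on both arrays, but by less than the gap between the vehicle arrays, and the other 6 members had groups that overlapped. Osmr was 1.95-fold lower, Socs3 1.69-fold lower and Stat3 1.37-fold lower. None of these differences passed the threshold of an adjusted p under 0.05 by limma, which 0.0% of all genes tested did. At an unadjusted p under 0.05 stood 2 of the 10 members, Osmr and Socs3, both lower, beside 2.2% of all genes and 1.08% lower. Signals are log2 values after quantile normalization, given per array or as mean ± SD (n = 2). Differences are ormeloxifene minus vehicle on that scale, with the standard error (SE) of the limma fit. On the values as deposited the groups of Stat3 overlapped, and Il6r was higher without overlap.

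The stretches before the annotated starts of Osmr, Socs3 and Stat3 are shown because STAT3 acts on promoters that hold a short inverted repeat. Cish, an inhibitor induced mainly through STAT5, is shown because its stretch holds that repeat. The contrast with the other stretches thus follows from that choice and is not a result. Each is the 250 bases before the start, 5′ to 3′ on the gene's own strand, from RefSeq on build GRCr8. Capitals mark the STAT repeat TTCNNNGAA and the AP-1 element TGANTCA, which is bound by Fos and Jun proteins. Osmr, chr2:57688562-57688811, minus strand, with its AP-1 match 33 to 27 bases before the start:
Osmr: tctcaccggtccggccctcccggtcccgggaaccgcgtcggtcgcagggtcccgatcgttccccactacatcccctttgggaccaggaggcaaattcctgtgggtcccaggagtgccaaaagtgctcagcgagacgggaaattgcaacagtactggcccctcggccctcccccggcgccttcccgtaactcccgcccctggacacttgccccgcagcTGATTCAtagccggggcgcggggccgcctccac
Socs3, chr10:103694769-103695018, minus strand:
Socs3: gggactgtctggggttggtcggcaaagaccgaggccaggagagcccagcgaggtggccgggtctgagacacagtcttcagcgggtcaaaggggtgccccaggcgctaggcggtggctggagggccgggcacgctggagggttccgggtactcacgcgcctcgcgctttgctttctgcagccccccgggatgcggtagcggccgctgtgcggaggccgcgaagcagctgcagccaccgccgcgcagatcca
Stat3, chr10:86363360-86363609, minus strand:
Stat3: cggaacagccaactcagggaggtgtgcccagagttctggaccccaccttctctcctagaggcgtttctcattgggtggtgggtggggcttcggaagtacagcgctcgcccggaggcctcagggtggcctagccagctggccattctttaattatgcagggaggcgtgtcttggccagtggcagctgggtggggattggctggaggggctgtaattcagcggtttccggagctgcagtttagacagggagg
Cish, chr8:116850719-116850968, plus strand, with 4 STAT repeats, the nearest from 119 to 111 bases before the start:
Cish: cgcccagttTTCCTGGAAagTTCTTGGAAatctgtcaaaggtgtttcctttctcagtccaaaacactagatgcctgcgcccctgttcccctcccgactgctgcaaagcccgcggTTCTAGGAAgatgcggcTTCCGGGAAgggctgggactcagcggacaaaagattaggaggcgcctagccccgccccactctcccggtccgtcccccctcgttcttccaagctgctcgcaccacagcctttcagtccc

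Of the 10 members, 8 were matched to such a stretch, and Lif and Il11ra1 were not. The repeat TTCNNNGAA, which reads the same on both strands, was in 0 of the 8, in 5 of 31 other pathway genes (Cish, Socs1, Bcl2l1, Icam1 and Fgb) and in 7.67% of 33469 stretches of that length. TGANTCA, likewise the same on both strands, was in the stretches of Osmr and Il11, in 4 of the 31 and in 6.34% of all. The cyclic AMP element TGACGTCA was in that of Il6 and in 1.59% of all, and the full palindrome of the oestrogen response element in 0 of the 8 and 0.0239% of all. A match describes the letters only, and the absence of one says nothing about binding outside the stretch. The starts are those of the annotation and were not checked against the starts used in the uterus. A stretch, that of Socs3 included, may thus miss the promoter of its gene.

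Some measures of the whole data set bear on every value. Arrays with the same replicate number were more alike (r = 0.980 and 0.983 across genes, which are not independent replicates) than the 2 arrays of a group (0.973 and 0.963). The arrays numbered 1 shared a value to the last digit at 488 probe sets and those numbered 2 at 551, but the other 4 pairs at 0. The labels name no batch, and the pooled differences, SEs and p-values come from a fit without the number. Because arrays of a number may share a batch that holds both groups, the difference within each number is given for every member and for the pathway genes named by rule, and the fit with the number as a block is an alternative. With 2 arrays in each group an exact permutation test of 1 gene cannot go below p = 0.333 (two-sided).

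**Figure D1:**
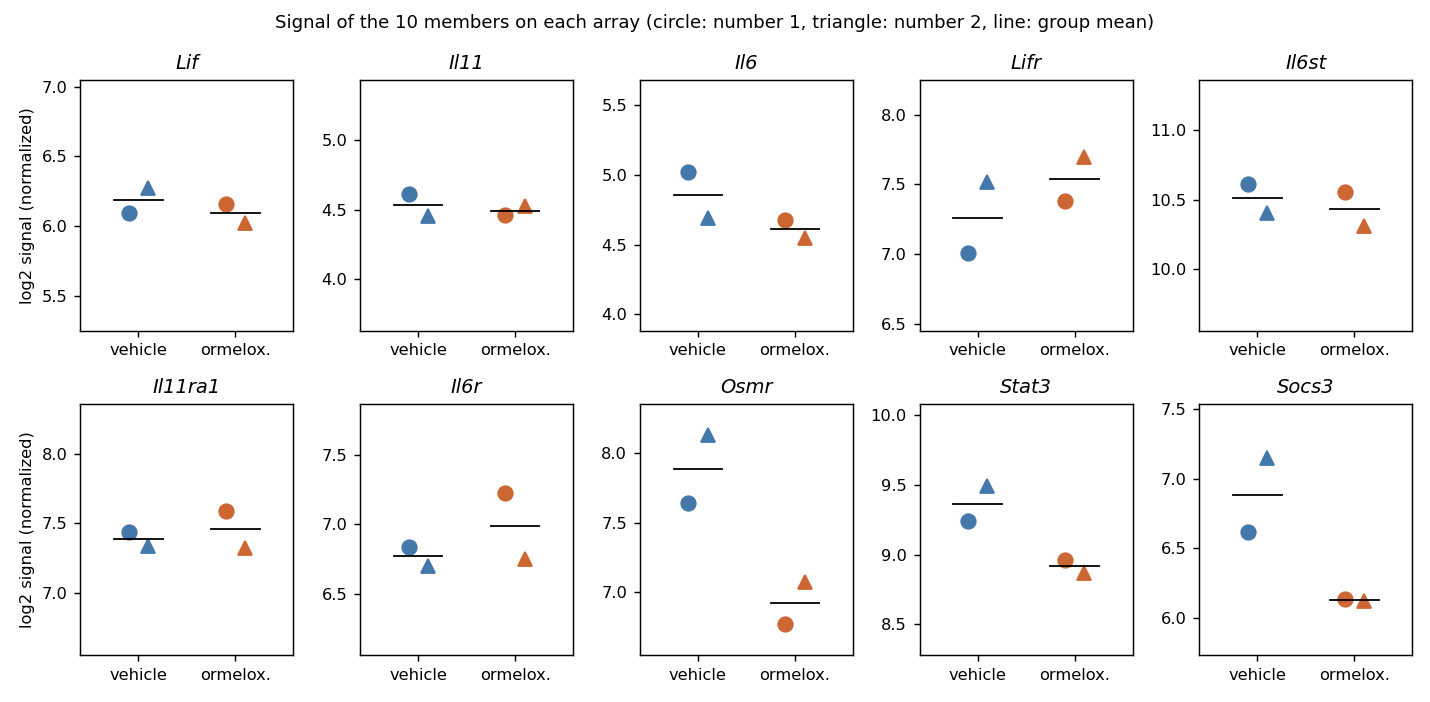
Normalized log2 signal of the 10 members on each of the 4 arrays, with vehicle on the left and ormeloxifene on the right of each panel, circles for replicate number 1, triangles for number 2 and a line at the group mean. Every panel spans the same height. The groups lie apart for Il6, Osmr, Stat3 and Socs3, with ormeloxifene below vehicle in each.

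Lif, the cytokine that uterine glands secrete around implantation, was measured by probe set 17691166. Its signal was 6.09 and 6.27 on vehicle arrays 1 and 2 and 6.16 and 6.02 on ormeloxifene arrays 1 and 2. The groups overlapped, and the sign of the difference changed with the number, at 0.07 within number 1 and -0.25 within number 2. The pooled difference was -0.09 ± 0.21 (SE), with a 95% interval from -0.58 to 0.40 (limma unadjusted p = 0.671). This number of arrays cannot tell apart changes of Lif within that interval, and the interval is not a limit of detection.

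Il11, which encodes the ligand of the interleukin 11 receptor, gave 4.61 and 4.45 with vehicle and 4.46 and 4.52 with ormeloxifene (probe set 17613051). The groups overlapped, with -0.15 within number 1 and 0.07 within number 2, and the difference was -0.04 ± 0.21 (SE), from -0.52 to 0.44. Il6, the inflammatory cytokine after which the family is named, gave 5.02 and 4.69 with vehicle and 4.68 and 4.55 with ormeloxifene (probe set 17788345). Its groups did not overlap but nearly met, and the difference of -0.24 ± 0.22 (SE) was smaller in size than the gap of -0.33 between the vehicle arrays. It was -0.34 within number 1 and -0.14 within number 2. Both probe sets were dim, with mean signals among the lowest 25% of the genes tested.

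Il6st encodes gp130, the chain that all these ligands share. It gave 10.61 and 10.41 with vehicle and 10.55 and 10.31 with ormeloxifene (probe set 17735754), and in both groups the array numbered 2 was the lower. The difference was -0.08 ± 0.22 (SE), with a 95% interval from -0.58 to 0.43, and it was -0.06 within number 1 and -0.10 within number 2.

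Lifr, the chain that pairs with gp130 to bind LIF, gave 7.00 and 7.51 with vehicle and 7.38 and 7.70 with ormeloxifene (probe set 17736233). Within each number the ormeloxifene array was the higher, by 0.38 and 0.18, but the groups overlapped because the arrays numbered 2 were higher in both. The pooled difference of 0.28 ± 0.25 (SE) had an interval from -0.31 to 0.87 (unadjusted p = 0.303 by limma). Without vehicle replicate 1 it was 0.03, and without vehicle replicate 2 it was 0.53.

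Il11ra1, the alpha chain that binds interleukin 11, gave 7.44 and 7.33 with vehicle and 7.59 and 7.33 with ormeloxifene (probe set 17798157). The difference was 0.07 ± 0.21 (SE), from -0.43 to 0.57, with 0.15 within number 1 and -0.01 within number 2, and the groups overlapped. Il6r, the alpha chain for interleukin 6, gave 6.84 and 6.70 with vehicle and 7.23 and 6.75 with ormeloxifene (probe set 17748948). Its difference of 0.22 ± 0.24 (SE) came mostly from ormeloxifene array 1, with 0.38 within number 1 and 0.05 within number 2, and without that array it was -0.02.

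Osmr, the chain that pairs with gp130 to bind oncostatin M and also forms part of the interleukin 31 receptor, had the largest difference of the 5 receptors. Its signal was 7.64 and 8.13 on the vehicle arrays and 6.77 and 7.07 on the ormeloxifene arrays (probe set 17745625). Both ormeloxifene arrays lay below both vehicle arrays, and within each number the ormeloxifene array was lower, by -0.87 and -1.06. Group means were 7.89 ± 0.35 (SD, n = 2) and 6.92 ± 0.21 (SD, n = 2). The difference was -0.96 ± 0.25 (SE), with a 95% interval from -1.55 to -0.38, an unadjusted p of 0.00541 and an adjusted p of 1.00 by limma. In size it was exceeded by 0.22% of the genes tested, and on the lower side Osmr ranked 19th. In bulk tissue a smaller number of cells that express a gene and less of its RNA per cell cannot be told apart.

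The adjusted p of Osmr stayed above the threshold in 13 of 14 alternatives. With the replicate number as a block it was 0.228, a fit in which 0.0275% of genes passed. It passed with that block on the values as deposited (adjusted p = 0.0136), where 0.462% of genes did. That fit has 1 residual degree of freedom per gene and 39.6 after moderation, so its p-values rest almost entirely on the variance shared between genes. The unadjusted p of Osmr was under 0.05 in 14 of 14, at 0.0376 or less, and the difference ran from -0.72 without vehicle replicate 2 to -1.21 without vehicle replicate 1.

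Stat3, the transcription factor that carries the signal from gp130 to the nucleus, gave 9.24 and 9.49 with vehicle and 8.96 and 8.87 with ormeloxifene (probe set 17661537). Both ormeloxifene arrays were below both vehicle arrays, by -0.28 within number 1 and -0.62 within number 2. The means were 9.37 ± 0.17 and 8.92 ± 0.06 (SD, n = 2). The difference of -0.45 ± 0.21 (SE) had an interval from -0.94 to 0.04 and an unadjusted p of 0.0689, short of the threshold by limma, while 5.2% of genes differed by more in size. With the number as a block the unadjusted p was 0.0323 (adjusted p = 0.701), a level that 6.76% of genes reached in that fit. On the values as deposited the groups of Stat3 overlapped.

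Socs3, the inhibitor that STAT3 induces, gave 6.62 and 7.15 with vehicle and 6.14 and 6.13 with ormeloxifene (probe set 17663683). The ormeloxifene arrays were nearly equal, at 6.13 ± 0.01 (SD, n = 2), and the vehicle arrays spread more widely, at 6.88 ± 0.37 (SD, n = 2). The difference was -0.75 ± 0.24 (SE), with an interval from -1.32 to -0.19 and an unadjusted p of 0.0156 by limma (adjusted p = 1.00). It was -0.49 within number 1 and -1.02 within number 2, and -0.49 (unadjusted p = 0.105) without vehicle replicate 2, the array with the highest signal. Leaving out ormeloxifene replicate 1 or 2 gave -0.76 and -0.75, with unadjusted p of 0.0518 and 0.0544.

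**Figure D2:**
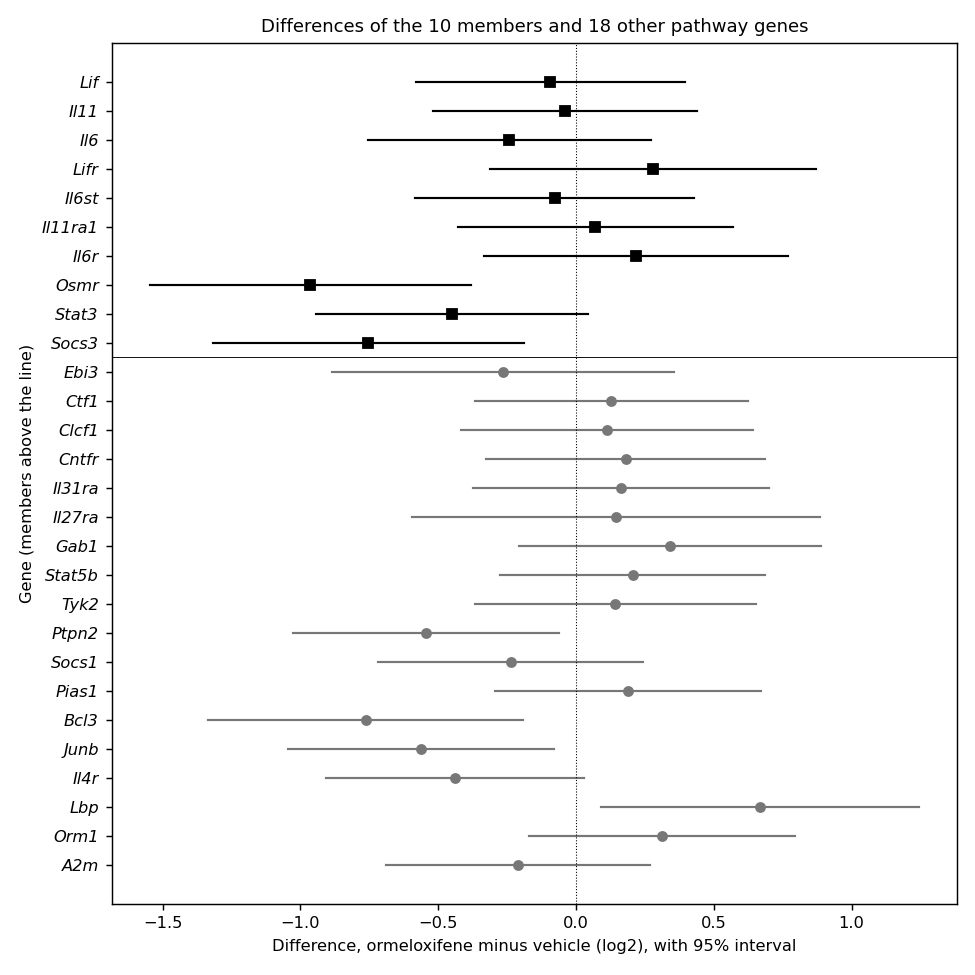
Difference between ormeloxifene and vehicle on the log2 scale with its 95% interval from the limma fit, for the 10 members (squares, above the line) and the 18 other pathway genes named by rule (circles). The intervals of Osmr, Socs3, Ptpn2, Bcl3 and Junb lie below 0 and that of Lbp above it, before any adjustment for the number of genes tested.

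Read as a group, the members showed 7 lower and 3 higher signals with ormeloxifene, where 46.6% of all genes were lower. Their median difference was -0.08 against 0.02 over all genes tested. The groups did not overlap for 4 members, Il6, Osmr, Stat3 and Socs3, all lower. Over all genes 25.7% did not overlap and 11.8% were lower in that way. On the values as deposited Il6, Osmr and Socs3 were again lower without overlap, but the groups of Stat3 overlapped. There Il6r was higher without overlap, and 17.2% of all genes did not overlap. After quantile normalization the differences of Osmr, Stat3 and Socs3 were larger than the gap between the 2 arrays of either group. This was so for 3 of 10 members and for 16.0% of all genes. Within number 1 the median of the members was -0.10 and within number 2 it was -0.12, beside 0.044 and -0.015 over all genes. Osmr, Stat3 and Socs3 encode a receptor chain, the transcription factor and its inhibitor. The ligands were lower too, in 3 of 3, from -0.24 to -0.04, and the probe sets of Il6 and Il11 were dim. As the members were chosen with earlier results of these data known, their counts are a description and not an independent test.

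**Figure D3:**
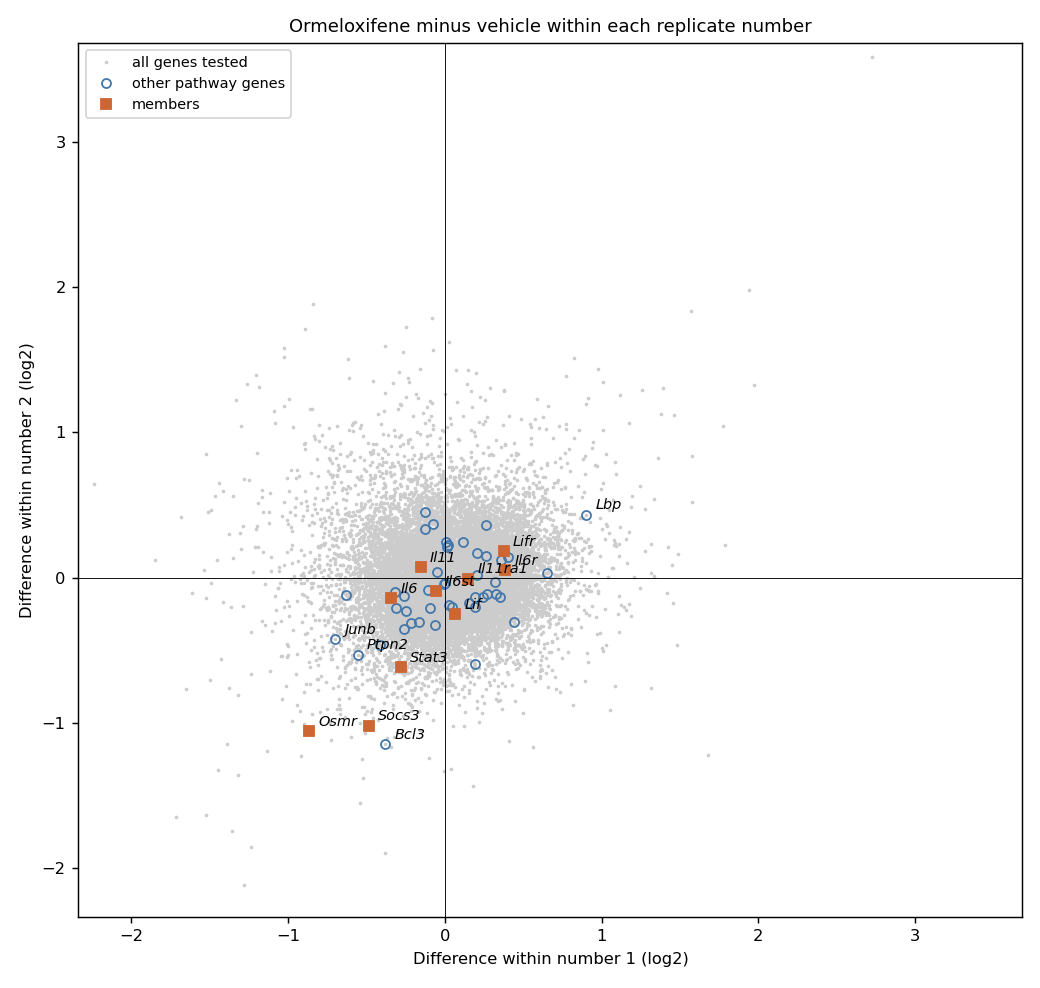
Difference between ormeloxifene and vehicle within replicate number 1 (horizontal) and within number 2 (vertical), both on the log2 scale, for all 18166 genes (grey points), the 45 other pathway genes (open circles) and the 10 members (squares). Osmr lies at -0.87 and -1.06, Socs3 at -0.49 and -1.02 and Stat3 at -0.28 and -0.62, while the other 7 members lie near the middle of the cloud.

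Another 50 genes of the pathway were listed by role, of which 45 were measured and the others were not analysed here. By limma 0 passed the adjusted threshold. At an unadjusted p under 0.05 stood 4, beside 2.2% of all genes. Of these Bcl3, Junb and Ptpn2 were lower (1.08% of all genes) and Lbp was higher. Of the 45, 22 were higher and 23 lower, and the median difference was -0.00, against 0.02 over all genes.

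The other ligands showed no common direction, with 3 higher and 3 lower of 6 measured. Ebi3, a subunit of interleukin 27, differed by -0.26 ± 0.27 (SE), Ctf1, which encodes cardiotrophin 1, by 0.13 ± 0.21, and Clcf1, a ligand of the ciliary neurotrophic factor receptor, by 0.11 ± 0.23. Within number 1 and number 2 these were -0.21 and -0.32 for Ebi3, 0.01 and 0.25 for Ctf1 and 0.02 and 0.21 for Clcf1. Osm, the gene of oncostatin M and so of the ligand of the Osmr chain, gave 7.01 and 6.38 with vehicle and 7.03 and 6.61 with ormeloxifene. Its groups overlapped and the difference was 0.12 ± 0.28 (SE). Il31, the other ligand whose receptor includes the Osmr chain, gave between 2.54 and 2.58 on all 4 arrays, at the 0.815th percentile of signal.

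Of the 3 other receptors measured all were higher, by small amounts and with overlapping groups. Cntfr, the alpha chain for ciliary neurotrophic factor, differed by 0.18 ± 0.22 (SE), and Il31ra, which pairs with the Osmr chain to bind interleukin 31, by 0.16 ± 0.23. Il27ra, the receptor chain for interleukin 27, differed by 0.15 ± 0.32 (SE), with a gap of -0.86 between the vehicle arrays. Within number 1 and number 2, Cntfr differed by 0.12 and 0.24, Il31ra by -0.13 and 0.45 and Il27ra by -0.07 and 0.37.

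The kinases, adaptors and other STATs lay close to 0, with 5 higher and 5 lower of 10 measured and a median difference of 0.01. Jak1 and Jak2, the kinases that gp130 binds, differed by -0.02 ± 0.22 and -0.01 ± 0.20 (SE), and Tyk2, the third such kinase, by 0.14 ± 0.22, with 0.32 within number 1 and -0.03 within number 2. Gab1, a docking protein between gp130 and the MAP kinase pathway, had the largest difference of the list at 0.34 ± 0.24 (SE), with 0.65 within number 1 and 0.03 within number 2. Without vehicle replicate 1 it was 0.12, and without vehicle replicate 2 it was 0.56. Stat5b, a STAT that prolactin and growth hormone activate, gave 7.45 and 7.63 with vehicle and 7.72 and 7.77 with ormeloxifene, a difference of 0.21 ± 0.21 (SE), or 0.26 and 0.15 within the numbers. The 95% interval of Jak1 ran from -0.54 to 0.49 and that of Jak2 from -0.48 to 0.46.

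Among the 8 other inhibitors, 4 were higher and 4 lower. Ptpn2, a phosphatase that removes phosphate from JAK1, JAK3 and STAT proteins, gave 8.16 and 8.28 with vehicle and 7.61 and 7.75 with ormeloxifene. The groups did not overlap, and the difference was nearly the same within both numbers, at -0.56 and -0.53. The pooled value was -0.54 ± 0.21 (SE), with an unadjusted p of 0.0316 by limma. Socs1, the inhibitor most closely tied to interferon signalling, differed by -0.24 ± 0.21 (SE), and Pias1, a SUMO ligase that restrains STAT proteins, by 0.19 ± 0.21. Within number 1 and number 2, Socs1 differed by -0.17 and -0.31 and Pias1 by 0.21 and 0.17. Cish and Socs2, inhibitors induced mainly through STAT5, differed by -0.15 ± 0.21 and -0.19 ± 0.23.

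Genes known as STAT3 targets were lower in 10 of 13 measured, where 46.6% of all genes were lower. Their median difference was -0.24 against 0.02 over all genes, and 6 had groups that did not overlap, all lower (11.8% of all genes). The list had 2 members at an unadjusted p under 0.05, both lower, beside 1.08% of all genes. Bcl3, a nuclear partner of NF-κB, gave 6.39 and 6.76 with vehicle and 6.01 and 5.61 with ormeloxifene. Both ormeloxifene arrays were the lower, by -0.38 within number 1 and -1.15 within number 2, and the pooled difference was -0.76 ± 0.25 (SE, unadjusted p = 0.0155 by limma). Junb, a component of the AP-1 factor, gave 6.83 and 6.68 with vehicle and 6.13 and 6.25 with ormeloxifene, a difference of -0.56 ± 0.21 (SE, unadjusted p = 0.0280 by limma), with -0.70 within number 1 and -0.42 within number 2. The whole list was drawn up with earlier results of these data known, and Junb was already known to be lower. Its counts are thus a description and not an independent test.

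Il4r, the alpha chain of the interleukin 4 receptor and a gene that STAT3 induces in macrophages, had the tightest groups of the list. It gave 8.92 and 8.95 with vehicle and 8.51 and 8.48 with ormeloxifene, and the difference of -0.44 ± 0.20 (SE) had an unadjusted p of 0.0631 by limma, with -0.41 and -0.47 within the numbers. On the values as deposited the groups of Il4r overlapped. After quantile normalization Fos and Myc were also lower without overlap, at -0.38 ± 0.22 and -0.31 ± 0.20. So was Timp1, an inhibitor of matrix proteases, at -0.19 ± 0.22. On the other side, Bcl2l1, a survival gene, differed by 0.24 ± 0.24, the kinase gene Pim1 by 0.11 ± 0.24 and Ccnd1, which encodes cyclin D1, by 0.08 ± 0.26. The median of the list was -0.25 within number 1, with 8 of 13 lower, and -0.23 within number 2, with 12 lower. Over all 18166 genes these medians were 0.044 and -0.015, with 7942 and 9567 lower.

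Acute phase genes, which interleukin 6 induces through STAT3 in liver, were higher in 4 of 5. Lbp, which binds bacterial lipopolysaccharide, gave 7.12 and 7.67 with vehicle and 8.02 and 8.11 with ormeloxifene. Both ormeloxifene arrays were the higher, and the difference was 0.67 ± 0.25 (SE, unadjusted p = 0.0289 by limma). It was 0.90 within number 1, 0.43 within number 2 and 0.39 without vehicle replicate 1. On the values as deposited the groups of Lbp overlapped, with a difference of 0.66 (unadjusted p = 0.105 by limma). Orm1, an acid glycoprotein of plasma, gave 10.54 and 10.62 with vehicle and 10.81 and 10.98 with ormeloxifene, a difference of 0.31 ± 0.21 (SE), or 0.26 and 0.36 within the numbers. A2m, the main acute phase inhibitor of proteases in rat liver, differed by -0.21 ± 0.21 (SE), or -0.32 and -0.10 within the numbers, and Hp, which encodes haptoglobin, by 0.27 ± 0.28. The liver targets and the general targets of STAT3 thus lay on different sides, at medians of 0.27 and -0.24; the difference between the lists was not tested.

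Markers of the cell types that a uterus holds were set beside these results, and 0 of them passed the adjusted threshold. Among stroma markers all 6 were at or above the 89.7th percentile of signal and all 4 measured smooth muscle markers at or above the 89.5th. Of the gland markers Foxa2 gave between 5.64 and 6.02, and Spink1 was at the 3.42th percentile. The level summed over the list did not separate the groups for gland (8.21 to 8.91 with vehicle, 8.58 to 8.83 with ormeloxifene, on the log2 scale), epithelium (10.19 to 10.26, 10.14 to 10.31), macrophage (10.21 on both vehicle arrays, 10.16 to 10.31), granulocyte (7.41 to 7.74, 7.48 to 7.49), mesothelium (7.61 to 8.02, 7.80 to 8.20) or ovary (7.56 to 7.65, 7.53 to 7.71). For stroma the ranges touched, at 13.60 to 13.74 and 13.74 to 13.79. Smooth muscle was higher with ormeloxifene in 4 of 4 markers measured, of 6 listed (12.65 to 12.78 against 12.90 to 13.15). So were endothelium in 3 of 3 measured, of 5 listed (9.02 to 9.03 against 9.17 to 9.33), and T cells in 5 of 5 (8.24 to 8.39 against 8.64 to 8.66). The listed markers Acta2, Cnn1, Pecam1 and Kdr were not measured. Over all 18166 genes 9702 were higher. Red blood cell markers, 2 measured of 4 listed, were lower in sum (6.42 to 6.75 against 6.24 to 6.28), with Hba-a1 at -0.73 ± 0.21 and Slc4a1 at 0.08 ± 0.23 (SE). The neutrophil gene S100a9 differed by -0.57 ± 0.23 (SE), while the granulocyte list had 3 of 5 higher. The part of these cell types in the lower signals of Osmr, Stat3 and Socs3 was not tested.

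**Figure D4:**
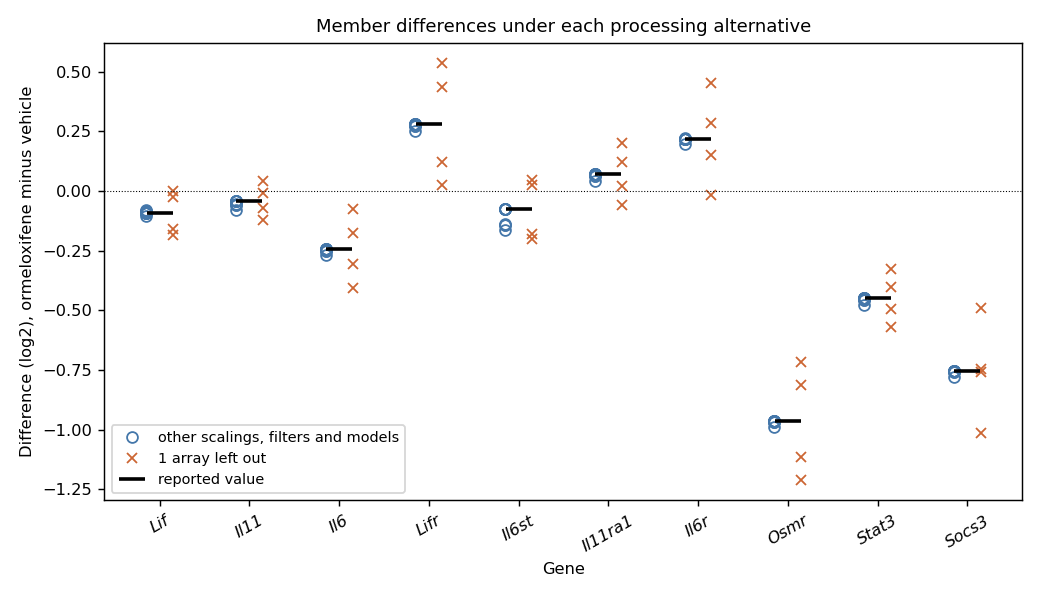
Difference of each member between ormeloxifene and vehicle on the log2 scale, as reported (bar), under other scalings, filters and models (circles) and with 1 array left out (crosses). Osmr, Stat3 and Socs3 stay below 0 in all 14 alternatives, and Il11, Il6st, Il11ra1 and Il6r cross 0 when an array is left out. The block, the dim filter, testing all probe sets and the moderation settings leave a difference unchanged by construction. Where groups do not overlap, leaving out 1 array cannot change the sign.

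Leaving out an array moved each member more than any other scaling, filter or model did, several of which leave a difference unchanged by construction. Over all 14 alternatives Stat3 ran from -0.57 to -0.33 and Socs3 from -1.02 to -0.49. The unadjusted p of Socs3 was under 0.05 in 10 of the 14 and that of Stat3 in 3. On the values as deposited Osmr alone of the members was under 0.05, beside 0.782% of all genes. Lif ran from -0.18 to -0.00, with an unadjusted p of 0.526 or more in each.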

How the data were processed

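Rat uterus RNA was measured on 4 Affymetrix whole-transcript arrays, from 100 ng of total RNA extracted with Trizol, per the labels' protocols. The authors deposited log2 signals of 36685 probe sets, made with Affymetrix Expression Console per the submitters' processing notes; version, summary method, centring and build are not stated. That the scale is log2 was read from the range, 0.92 to 13.59. Array medians were 5.67 and 5.93 (ormeloxifene) and 5.72 and 5.84 (vehicle), so arrays were quantile normalized over all probe sets. By platform annotation 18511 probe sets had 1 gene symbol, 575 had several and 17599 were unnamed; the brightest probe set per gene left 18166 genes, and 18394 probe sets matched GRCr8 by gene number. Groups were compared with limma 3.58.1 (lmFit, eBayes, 2-sided, no block) under R 4.3.3, with 2 residual degrees of freedom and 7.55 after moderation. The p-values were adjusted by Benjamini-Hochberg across the 18166 genes, with a threshold of 0.05. The fit was also run on simulated data with independent arrays, which cannot show how p-values behave where arrays of a number deviate together. Members and lists were chosen with earlier results of these data known. Named pathway genes were the 3 of smallest p in each list; other genes of a list are given because their role bears on a member or to show a list's range, and the printed promoters were chosen after values were seen. Protein sequences were not used here. Alternatives covered scaling, the replicate number as a block, a filter on dim genes, the probe sets tested, moderation and leaving out each array. P-values measure spread between arrays labelled biological replicates, moderated by the variance shared between genes, which supplies most of the 7.55 degrees of freedom. The number of arrays limits precision.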

Additional observations from a re-analysis of the deposited data

How the results depend on the processing

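Of 138 member differences under 14 alternatives, 132 kept their direction and side of the adjusted threshold, 5 changed sign and 1 passed (Osmr, -0.97, with the replicate block on the values as deposited). That made 1 member past the threshold, against 0. The block, the dim filter, testing all probe sets and the moderation settings cannot change a direction. Nor can leaving out 1 array where the groups do not overlap, so the count of kept directions is partly fixed. Members at an unadjusted p under 0.05 fell from 2 to 1 on the values as deposited. Their median was -0.11 on the values as deposited (with or without the replicate block) and with arrays centred on the 75th percentile, and -0.13 with arrays centred on the median. Pathway genes at an unadjusted p under 0.05 numbered 1 on the values as deposited, 2 with median centring and 1 with all probe sets tested, against 4. Over all 18166 genes the same settings gave 142, 295 and 204, against 399. The cause of these shifts was not tested. With 1 array left out, members past the adjusted threshold stayed at 0 (range 0 to 0), members at an unadjusted p under 0.05 ran from 1 to 2 (the lone array of the reduced group is assumed to have the other group's variance), their median from -0.18 to -0.025, pathway genes from 0 to 2 and their median from -0.05 to 0.04. Members without overlap ran from 6 to 8 of 10, beside 58.5% to 67.1% of all genes under the same settings, in which 1 array stands against 2. The sign changes came with 1 array left out, in Il11 (-0.12 to 0.041), Il6st (-0.20 to 0.045, and 0.026), Il11ra1 (-0.060 to 0.20), Il6r (-0.018 to 0.45), Ctf1 (-0.0057 to 0.26), Clcf1 (-0.073 to 0.30), Il31ra (-0.039 to 0.36), Il27ra (-0.28 to 0.58, and -0.061) and Tyk2 (-0.022 to 0.31). The filter on dim genes removed Il11 and Il6 among the members and Il31, Il31ra and Hp among the pathway genes.

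The labels do not say that the replicate numbers pair the samples; deviations from the group means of same-numbered arrays correlated at 0.475 across genes. With the number as a block, 3 members stood at an unadjusted p under 0.05 (Osmr, Socs3 and Stat3), against 2, with 0 past the adjusted threshold; over all genes 1228 had an unadjusted p under 0.05, against 399. The split of those 399, 203 higher and 196 lower, was 57 and 85 on the values as deposited and 112 and 183 with median centring.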
